A study of Homo sapiens with 9 samples.

Results

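The Notch genes examined here are the receptors NOTCH1, NOTCH2 and NOTCH3, the ligands JAG1, JAG2 and DLL1, the transcriptional targets HES1, HES4 and HEY1, and the Notch inhibitor NUMB. These 10 genes were taken by name, through the Ensembl identifiers of GENCODE 29, and make up 10 of the 59107 gene entries in each library. RNA was sequenced from HK1, an established cell line from a human nasopharyngeal carcinoma, a tumour of squamous epithelium. Cells had been transfected for 48 h with siRNA at 100 nM, and the 9 libraries form 3 groups of 3: siRNA against E2F1, siRNA against E2F3, and a control siRNA with no target. E2F1 and E2F3 are transcription factors that bind the retinoblastoma protein and drive genes of S phase entry. The line is a tumour line grown in culture, every group had been transfected, with siRNA sequences not given in the sources used here.

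Notch receptors are membrane proteins that are switched on by a Jagged or Delta ligand on a neighbouring cell. Ligand binding exposes the receptor to the protease ADAM10 and then to gamma-secretase, which frees the intracellular domain. That domain enters the nucleus, binds RBPJ and a Mastermind protein, and switches on repressor genes of the HES and HEY families. NUMB is an endocytic adaptor that lowers the amount of receptor at the membrane. In stratified squamous epithelium Notch is known for its part in the exit of basal cells into differentiation, and NOTCH1 is often mutated in squamous carcinomas.

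RBPJ is known to bind paired sites just upstream of HES1. Only the words GTGGGAA and ATGGGAA were searched, so a partner site spelled otherwise is neither marked nor counted. The bases before the starts of HES1 and HES4, the targets that were well expressed here, are shown because they carry the same RBPJ word. Both run 5′ to 3′ on the gene's own strand (RefSeq, GRCh38.p14, 250 bases before the start), with the word GTGGGAA in capitals.

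HES1, chr3:194135898-194136147, plus strand: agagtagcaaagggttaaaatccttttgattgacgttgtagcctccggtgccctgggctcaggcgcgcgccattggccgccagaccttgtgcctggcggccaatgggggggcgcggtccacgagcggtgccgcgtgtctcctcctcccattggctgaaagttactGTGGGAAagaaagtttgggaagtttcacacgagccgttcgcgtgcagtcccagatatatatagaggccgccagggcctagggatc
HES4, chr1:1000098-1000347, minus strand: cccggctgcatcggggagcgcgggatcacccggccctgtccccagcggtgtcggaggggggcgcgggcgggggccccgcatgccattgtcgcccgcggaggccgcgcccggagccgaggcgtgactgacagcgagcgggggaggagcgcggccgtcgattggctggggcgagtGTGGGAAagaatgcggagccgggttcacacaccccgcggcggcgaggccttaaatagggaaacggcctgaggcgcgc

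The word begins at position -85 of HES1 and position -77 of HES4, where -1 is the base before the RefSeq start. It lies within the longest run that the upstream sequences of HES1 and HES4 share, TGTGGGAAAGAA. On the gene's own strand 5 of 35116 promoters hold that run, HES1 and HES4 among them. The run was picked because both hold it, so its rarity is no separate support. Promoters of 8 of the 10 genes were searched on both strands over the same 250 bases; DLL1 and HEY1 were not searched. Of these 8, HES1 and HES4 held an RBPJ word (GTGGGAA or ATGGGAA), against 9.28% of all promoters. An E2F word (TTCCCGC or TTCGCGC or TTGCCGC or TTGGCGC) stood in the NOTCH2 promoter alone among the 8, at position -101, against 10.9% of all promoters. None of the 8 held the E-box CACGTG, a word that HEY-type repressors can bind and that 6.34% of all promoters hold. A match is a run of letters, and no binding was measured.

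Levels are given in FPKM (fragments per kilobase of transcript, per library total), a unit scaled by transcript length and library size. Fold changes are log2 differences of FPKM + 1. They understate changes, most of all for genes near or below 1 FPKM and less so at higher levels. For E2F1 after E2F1 siRNA the value was log2 -1.30, and -1.40 with a pseudocount of 0.1. Genes that reached 1 FPKM in 3 libraries or more, 13777 in all, were tested together with limma, and a gene was called where its Benjamini-Hochberg adjusted p was under 0.05. Separate cultures for the 3 libraries of a group are not stated in the labels, and p-values therefore measure nothing beyond the spread between these libraries. In RNA from whole cultures, fewer cells that make a transcript and less transcript per cell cannot be told apart. Both siRNA groups were compared with the same 3 control libraries, so those 2 comparisons share their controls.

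Each siRNA lowered its own target. E2F1 was at 7.17, 7.95 and 7.33 FPKM after E2F1 siRNA, 21.21, 22.97 and 21.0 after E2F3 siRNA, and 19.85, 19.53 and 20.2 in control. E2F3 was at 29.19, 27.78 and 29.23 FPKM after E2F1 siRNA, 12.61, 10.52 and 11.02 after E2F3 siRNA, and 24.74, 27.17 and 24.42 in control. The targeted transcripts thus changed by log2 -1.30 for E2F1 (limma adjusted p = 3.71e-07) and log2 -1.10 for E2F3 (limma adjusted p = 3.58e-06). The files hold no read totals. Steps in the values of short genes place sequencing depth, as a multiple of that in control replicate 1, at 0.912 to 1.153 after E2F1 siRNA, 0.990 to 1.002 after E2F3 siRNA, and 0.870 to 1.234 in control. All 9 epithelial and squamous markers were detected, with summed levels of 2325 to 2425 FPKM after E2F1 siRNA, 2130 to 2246 after E2F3 siRNA and 3100 to 3153 in control. The sum was thus lower in both siRNA groups, though not every marker was. KRT17 averaged 400 FPKM after E2F1 siRNA, 368 after E2F3 siRNA and 767 in control. In the same order EPCAM averaged 195, 177 and 175 FPKM, and SFN 345, 274 and 348. None of 4 leukocyte markers reached 1 FPKM in any library, and 1 of 3 endothelial markers did, with sums of 0.69 to 1.22 FPKM after E2F1 siRNA, 0.29 to 0.67 after E2F3 siRNA and 1.04 to 1.87 in control. Of 5 fibroblast markers COL1A1 and COL3A1 reached 1 FPKM, with sums of 17.41 to 20.26 FPKM after E2F1 siRNA, 14.24 to 16.12 after E2F3 siRNA and 13.55 to 14.81 in control. Most of that sum was COL1A1, which rose after E2F1 siRNA (log2 0.45; limma adjusted p = 0.00179), while COL1A2 and DCN stayed at or below 0.31 FPKM in every library. The part of these marker sums in the Notch results was not tested.

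Of the 10 Notch genes, 9 were expressed above the filter and tested. After E2F1 siRNA 5 of the 9 fell (NOTCH2, JAG1, DLL1, HES1 and HES4) and 2 rose (NOTCH1 and NUMB), while 17.3% of all tested genes fell and 20.5% rose. After E2F3 siRNA 6 of the 9 fell (NOTCH1, NOTCH2, JAG1, JAG2, DLL1 and HES4) and 2 rose (HEY1 and NUMB), while 16.4% of all tested genes fell and 21.1% rose. The 3 siRNA libraries all lay outside the control range for 7 of the 9 genes after E2F1 siRNA, against 50.3% of all tested genes, and for 8 of the 9 after E2F3 siRNA, against 49.5%. The median log2 change of the 9 was -0.41 after E2F1 siRNA and -0.26 after E2F3 siRNA, beside 0.03 and 0.04 over all tested genes. Calls were more frequent among genes with higher levels. A filter of 5 FPKM left out only HEY1 of the 9. With it 46.9% of genes were called after E2F1 siRNA and 44.7% after E2F3 siRNA, beside 37.8% and 37.6% with the main filter. The 10 genes were also chosen with earlier results of these data known. Several of these calls are narrow, and the libraries on which they depend are named with each gene.

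**Figure D1:**
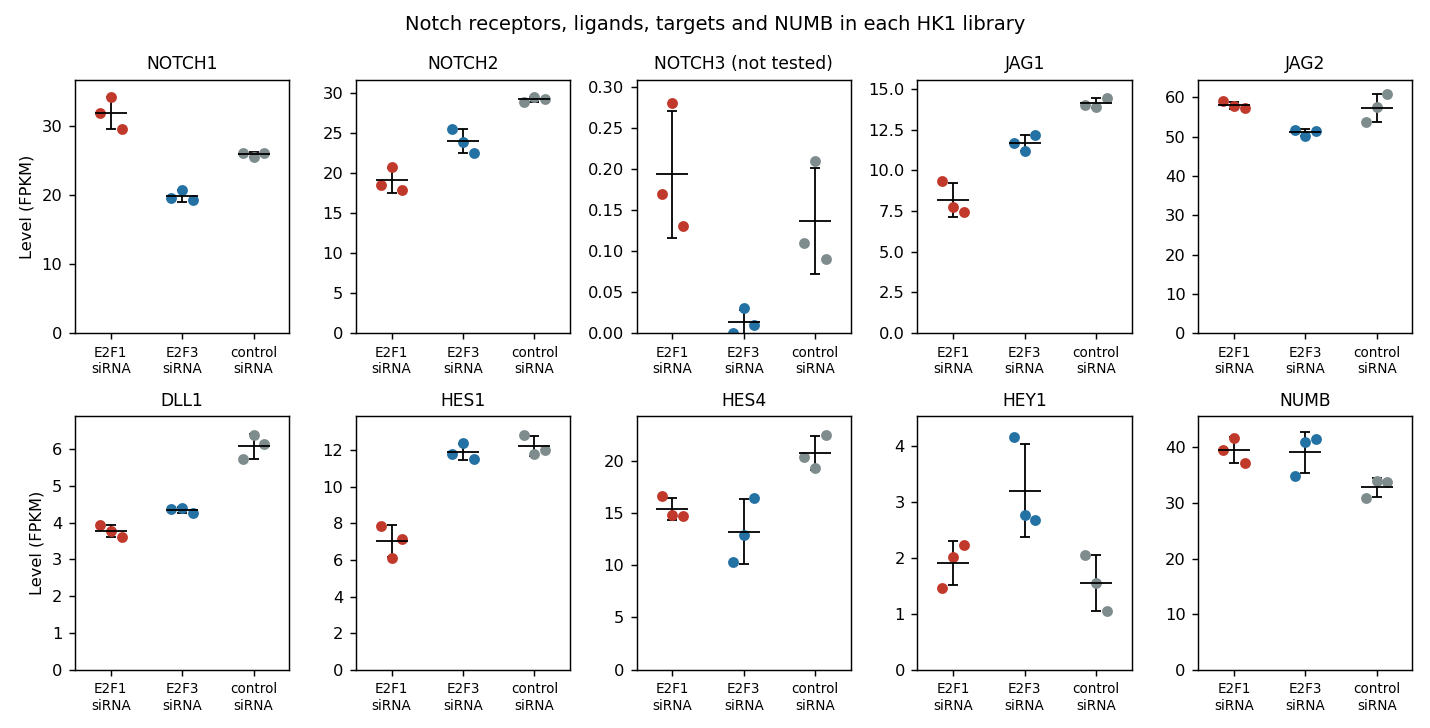
FPKM of each of the 10 Notch genes in the 9 libraries, with a panel and an axis from 0 for each gene; points are libraries, horizontal lines the mean of 3 and whiskers the SD, for E2F1 siRNA, E2F3 siRNA and control from left to right. NOTCH1 is highest after E2F1 siRNA and lowest after E2F3 siRNA, while HES1 is low after E2F1 siRNA and overlaps control after E2F3 siRNA.

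In control cells the most abundant transcript of the 10 was that of the ligand JAG2, at 57.4 ± 3.54 FPKM (SD, n = 3 for this and all following means), above 85.4% of the tested genes. NUMB followed at 32.8 ± 1.73 FPKM, NOTCH2 at 29.2 ± 0.340, NOTCH1 at 25.9 ± 0.358 and HES4 at 20.7 ± 1.61. JAG1 stood at 14.1 ± 0.293 FPKM, HES1 at 12.2 ± 0.550 and DLL1 at 6.08 ± 0.338. HEY1 was low at 1.55 ± 0.500 FPKM, above only 10.4% of the tested genes, and NOTCH3 lay at 0.137 ± 0.0643. No neighbours in this order overlapped in their control libraries. The other receptor, NOTCH4, was at 0.11 to 0.16 FPKM after E2F1 siRNA, 0.11 to 0.29 after E2F3 siRNA and 0.09 to 0.35 in control, so nearly all receptor transcript was NOTCH1 and NOTCH2.

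The main receptors responded differently to the 2 siRNAs. NOTCH1 (chr9:136494433-136545786, minus strand, GRCh38) was at 31.92, 34.17 and 29.56 FPKM after E2F1 siRNA, 19.57, 20.78 and 19.23 after E2F3 siRNA, and 26.07, 25.45 and 26.07 in control. Every library after E2F1 siRNA lay above control and every library after E2F3 siRNA below it. The rise after E2F1 siRNA was log2 0.29 (SE 0.06; limma adjusted p = 0.00385), and E2F3 siRNA brought a fall, log2 -0.37 (SE 0.06; limma adjusted p = 0.0011). NOTCH2 (chr1:119911553-120069626, minus strand) was at 18.5, 20.75 and 17.84 FPKM after E2F1 siRNA, 25.5, 23.88 and 22.43 after E2F3 siRNA, and 28.81, 29.49 and 29.17 in control. It was lower than control in all 6 siRNA libraries, and lower after E2F1 siRNA than after E2F3 siRNA without overlap. With E2F1 siRNA the change was log2 -0.59 (SE 0.07; limma adjusted p = 9.57e-05), and with E2F3 siRNA -0.28 (SE 0.07; limma adjusted p = 0.00958). NOTCH1 and NOTCH2 kept these calls under every alternative setting tried, leaving out any library included.

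NOTCH2NLA is a near-identical partial copy of NOTCH2, so reads may have been divided between them and the NOTCH2 level is uncertain to at least that extent. It was the only copy looked up, and any others were not examined. NOTCH2NLA was at 7.60 ± 0.523 FPKM after E2F1 siRNA, 11.1 ± 1.27 after E2F3 siRNA and 11.6 ± 0.730 in control. The ratio of NOTCH2 to NOTCH2NLA was 2.51 ± 0.212 after E2F1 siRNA, 2.16 ± 0.132 after E2F3 siRNA and 2.52 ± 0.128 in control.

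NOTCH3 (chr19:15159038-15200981, minus strand), a receptor best known from vascular smooth muscle, was below the filter in all 9 libraries. It was at 0.17, 0.28 and 0.13 FPKM after E2F1 siRNA and 0.11, 0.21 and 0.09 in control. After E2F3 siRNA it was listed at 0 in the first library and at 0.03 and 0.01 FPKM in the others. With no filter on low values it was tested among 30309 genes, and neither E2F1 siRNA (limma adjusted p = 0.536) nor E2F3 siRNA (limma adjusted p = 0.0992) gave a call against control. In that fit E2F3 siRNA against E2F1 siRNA was called (log2 -0.23; limma adjusted p = 0.0218), with the E2F3 siRNA libraries between 0 and 0.03 FPKM.

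Among the ligands, JAG1 and DLL1 fell after both siRNAs. JAG1 (chr20:10637684-10673999, minus strand), a Jagged-type ligand, was at 9.34, 7.75 and 7.44 FPKM after E2F1 siRNA, 11.66, 11.19 and 12.19 after E2F3 siRNA, and 14.03, 13.9 and 14.46 in control. The 3 groups did not overlap, and E2F1 siRNA gave the lowest values. The change was log2 -0.73 with E2F1 siRNA (SE 0.08; limma adjusted p = 9.03e-05), a call kept under every alternative, and -0.26 after E2F3 siRNA (limma adjusted p = 0.0329). The E2F3 siRNA call was lost without control replicate 1, 2 or 3 (log2 -0.26, -0.27 and -0.24) and without E2F3 siRNA replicate 1 or 2 (log2 -0.25 and -0.23), and with no filter (limma adjusted p = 0.0706).

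DLL1 (chr6:170282206-170306565, minus strand), a Delta-type ligand, was at 3.94, 3.78 and 3.61 FPKM after E2F1 siRNA, 4.36, 4.4 and 4.25 after E2F3 siRNA, and 5.72, 6.39 and 6.13 in control. All 6 siRNA libraries lay below control. Its change was log2 -0.57 with E2F1 siRNA (SE 0.08; limma adjusted p = 2.72e-04) and -0.41 with E2F3 siRNA (SE 0.08; limma adjusted p = 0.00226), and it kept both calls under every alternative. The gene FAM120B overlaps the DLL1 locus on the other strand, but 0 of the 3226 exonic bases of DLL1 are exonic in FAM120B, which was at 15.34 to 18.03 FPKM after E2F1 siRNA, 17.39 to 18.42 after E2F3 siRNA and 14.03 to 15.95 in control.

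JAG2 (chr14:105140981-105168824, minus strand), the other Jagged-type ligand, was at 59.03, 57.7 and 57.35 FPKM after E2F1 siRNA, 51.78, 50.12 and 51.5 after E2F3 siRNA, and 53.72, 57.56 and 60.8 in control. The E2F1 siRNA libraries lay within the control range and the E2F3 siRNA libraries below it. After E2F1 siRNA the difference was log2 0.02 (95% interval -0.09 to 0.13; limma adjusted p = 0.801), and its sign was reversed by other scalings (log2 -0.01). After E2F3 siRNA it was log2 -0.16 (limma adjusted p = 0.0271). That call was lost without control replicate 2 or 3 (log2 -0.16 and -0.12), without E2F3 siRNA replicate 2 or 3 (log2 -0.15 and -0.17), with only the 6 libraries compared (limma adjusted p = 0.0535) and with GC and length correction (log2 -0.08).

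**Figure D2:**
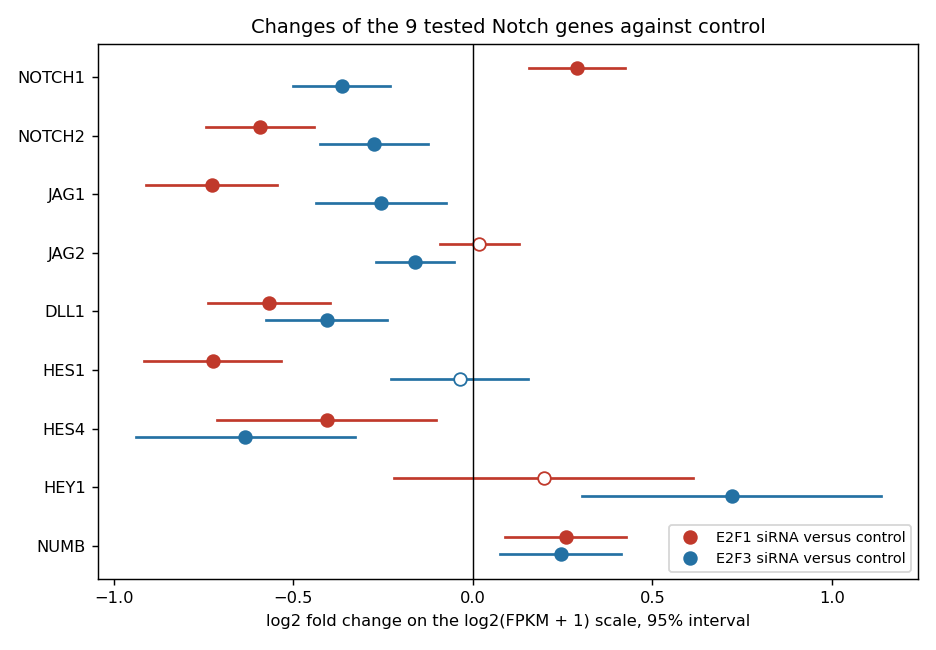
Log2 change on the log2(FPKM + 1) scale (horizontal axis) with its 95% interval for the 9 Notch genes tested, for E2F1 siRNA (red) and E2F3 siRNA (blue), each against control; filled points were called and open points were not. The intervals of NOTCH1 lie on opposite sides of 0 for the 2 siRNAs, and that of HES1 spans 0 after E2F3 siRNA.

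The targets encode basic helix-loop-helix repressors, and each had its own pattern. HES1 (chr3:194136145-194138732, plus strand) was at 7.84, 6.08 and 7.16 FPKM after E2F1 siRNA, 11.79, 12.37 and 11.49 after E2F3 siRNA, and 12.84, 11.81 and 11.99 in control. The E2F1 siRNA libraries were the lowest of the 9, and the E2F3 siRNA and control libraries overlapped. With E2F1 siRNA the change of HES1 was log2 -0.72 (SE 0.09; limma adjusted p = 1.28e-04), a call kept under every alternative. After E2F3 siRNA its difference was log2 -0.04 (95% interval -0.23 to 0.16; limma adjusted p = 0.766).

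HES4 (chr1:998962-1000172, minus strand) was at 16.58, 14.79 and 14.73 FPKM after E2F1 siRNA, 10.26, 12.88 and 16.44 after E2F3 siRNA, and 20.37, 19.3 and 22.46 in control. All 6 siRNA libraries lay below control, and the E2F3 siRNA libraries were the most spread of the groups. With E2F1 siRNA the change of HES4 was log2 -0.41 (SE 0.14; limma adjusted p = 0.0399), and with E2F3 siRNA it was -0.63 (SE 0.14; limma adjusted p = 0.0052). The E2F1 siRNA call was lost whichever of the 6 libraries of that comparison was left out (log2 -0.35 to -0.46), without E2F3 siRNA replicate 2 (limma adjusted p = 0.0526), and with no filter (limma adjusted p = 0.123), while the E2F3 siRNA call held under every alternative. At 73.9% its transcript has a higher GC content than 99.9% of tested genes. With GC and length correction the change was log2 -0.57 after E2F1 siRNA and -0.56 after E2F3 siRNA, both called.

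HEY1 (chr8:79764010-79767863, minus strand) was at 1.46, 2.02 and 2.22 FPKM after E2F1 siRNA, 4.15, 2.76 and 2.67 after E2F3 siRNA, and 2.05, 1.54 and 1.05 in control. The E2F3 siRNA libraries lay above all others, and the E2F1 siRNA and control libraries overlapped. HEY1 rose by log2 0.72 after E2F3 siRNA (SE 0.19; limma adjusted p = 0.013), a call lost with no filter on low values (limma adjusted p = 0.0527). After E2F1 siRNA it was not called (log2 0.20; limma adjusted p = 0.442). 

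NUMB (chr14:73275107-73458617, minus strand) was at 39.54, 41.79 and 37.12 FPKM after E2F1 siRNA, 34.94, 41.06 and 41.48 after E2F3 siRNA, and 30.83, 33.91 and 33.74 in control. All 6 siRNA libraries lay above control. It rose by log2 0.26 with E2F1 siRNA (SE 0.08; limma adjusted p = 0.022), and by 0.24 after E2F3 siRNA (limma adjusted p = 0.0285). The call after E2F1 siRNA was lost without control replicate 1 (log2 0.22), without E2F1 siRNA replicate 1 or 2 (log2 0.26 and 0.22), and with no filter. The call after E2F3 siRNA was lost without control replicate 1 (log2 0.20), without E2F3 siRNA replicate 2 or 3 (log2 0.21 and 0.20), with no filter, with RLE scaling (log2 0.20) and with GC and length correction (log2 0.17).

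**Figure D3:**
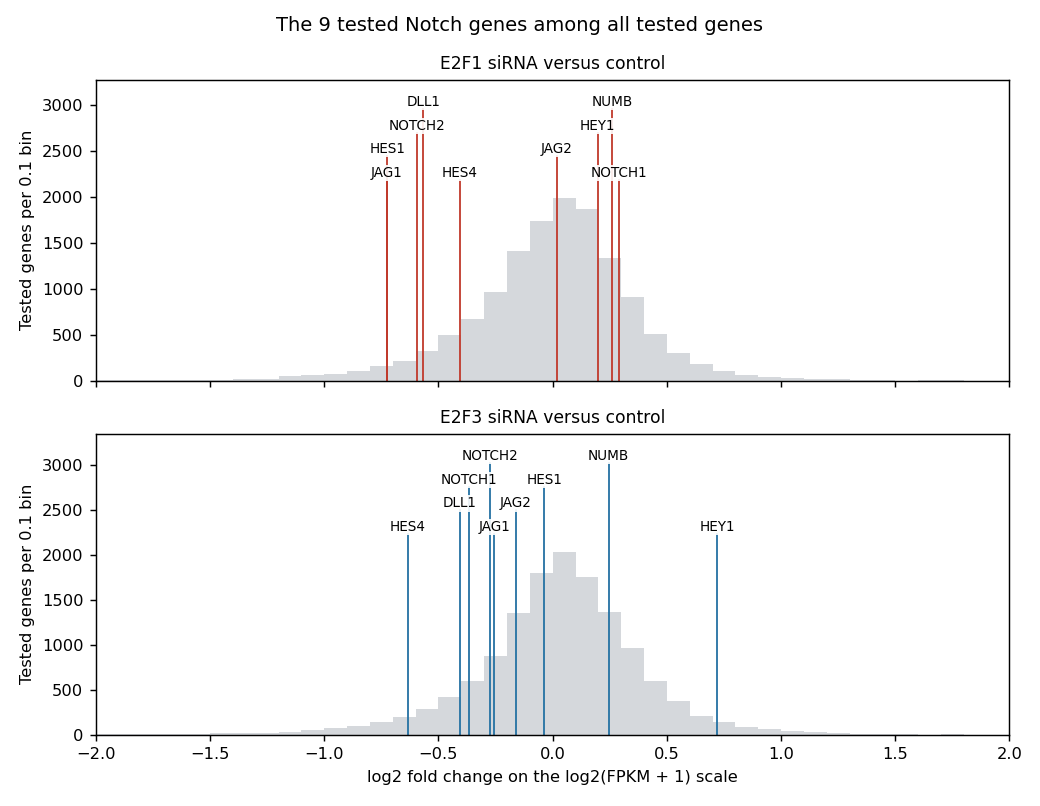
Histograms of the log2 change on the log2(FPKM + 1) scale (horizontal axis, drawn between -2 and 2) of the 13777 tested genes (vertical axis, genes per bin of 0.1) after E2F1 siRNA and after E2F3 siRNA, each against control, with lines at the values of the 9 Notch genes. JAG1 and HES1 lie farthest to the left of the 9 after E2F1 siRNA, and HES4 and HEY1 mark the ends of the 9 after E2F3 siRNA.

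Set directly against each other, the siRNA groups differed for 6 of the 9 genes, with 4 higher and 2 lower after E2F3 siRNA than after E2F1 siRNA, while 23.5% of all tested genes were called higher and 22.0% lower. HES1 differed most, at 11.9 ± 0.447 FPKM after E2F3 siRNA and 7.03 ± 0.888 after E2F1 siRNA (log2 0.69; limma adjusted p = 1.44e-04). NOTCH1 was at 19.9 ± 0.815 FPKM after E2F3 siRNA and 31.9 ± 2.31 after E2F1 siRNA (log2 -0.66; limma adjusted p = 1.86e-05). Both differences held under every alternative, as did those of JAG1 (log2 0.47; limma adjusted p = 0.00111) and NOTCH2 (log2 0.32; limma adjusted p = 0.00362), which were higher after E2F3 siRNA.

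The other differences between the siRNA groups were less firm. JAG2 was lower after E2F3 siRNA (log2 -0.18; limma adjusted p = 0.0138), a call lost with upper-quartile scaling (log2 -0.13) and with GC and length correction (log2 -0.05). HEY1 was higher after E2F3 siRNA (log2 0.52; limma adjusted p = 0.0433), a call lost without control replicate 2 (log2 0.52), without E2F1 siRNA replicate 1 or 2 (log2 0.41 and 0.56) and without E2F3 siRNA replicate 1 or 2 (log2 0.37 and 0.59). It was lost as well with no filter, with a pseudocount of 0.1 (log2 0.71) and with GC and length correction (log2 0.45). DLL1 did not pass (log2 0.16; 95% interval -0.01 to 0.33; limma adjusted p = 0.111) and passed with GC and length correction (log2 0.22). HES4 did not pass (log2 -0.23; limma adjusted p = 0.207) and passed without E2F3 siRNA replicate 3 (log2 -0.39). For NUMB the difference was log2 -0.01 (95% interval -0.18 to 0.15; limma adjusted p = 0.897).

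These unequal changes shifted the proportions within each role. NOTCH1 made up 62.4 ± 0.622% of the summed receptor level after E2F1 siRNA, 45.4 ± 1.68% after E2F3 siRNA and 46.9 ± 0.661% in control, and the E2F1 siRNA libraries did not overlap control. The receptor sum itself was 51.1 ± 3.86 FPKM after E2F1 siRNA, 43.8 ± 1.86 after E2F3 siRNA and 55.2 ± 0.170 in control. JAG2 made up 82.9 ± 1.16% of the ligand sum after E2F1 siRNA, 76.1 ± 0.305% after E2F3 siRNA and 73.9 ± 0.792% in control, without overlap among the groups.

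The 3 ligands together came to 70.0 ± 2.06 FPKM after E2F1 siRNA, 67.2 ± 1.25 after E2F3 siRNA and 77.6 ± 3.97 in control, and all 6 siRNA libraries lay below control. The HES4 to HES1 ratio was 2.20 ± 0.202 after E2F1 siRNA, 1.11 ± 0.287 after E2F3 siRNA and 1.70 ± 0.154 in control, so the siRNA groups lay on opposite sides of control. It was taken without GC and length correction, which made the fall of HES4 larger after E2F1 siRNA and smaller after E2F3 siRNA. The ratio of the inhibitor NUMB to NOTCH1 was 1.24 ± 0.0164 after E2F1 siRNA, within the control range, and 1.97 ± 0.186 after E2F3 siRNA, above it, with 1.27 ± 0.0779 in control. These sums and ratios were not tested; an exact permutation test of 3 libraries against 3 cannot give a two-sided p below 0.1.

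**Figure D4:**
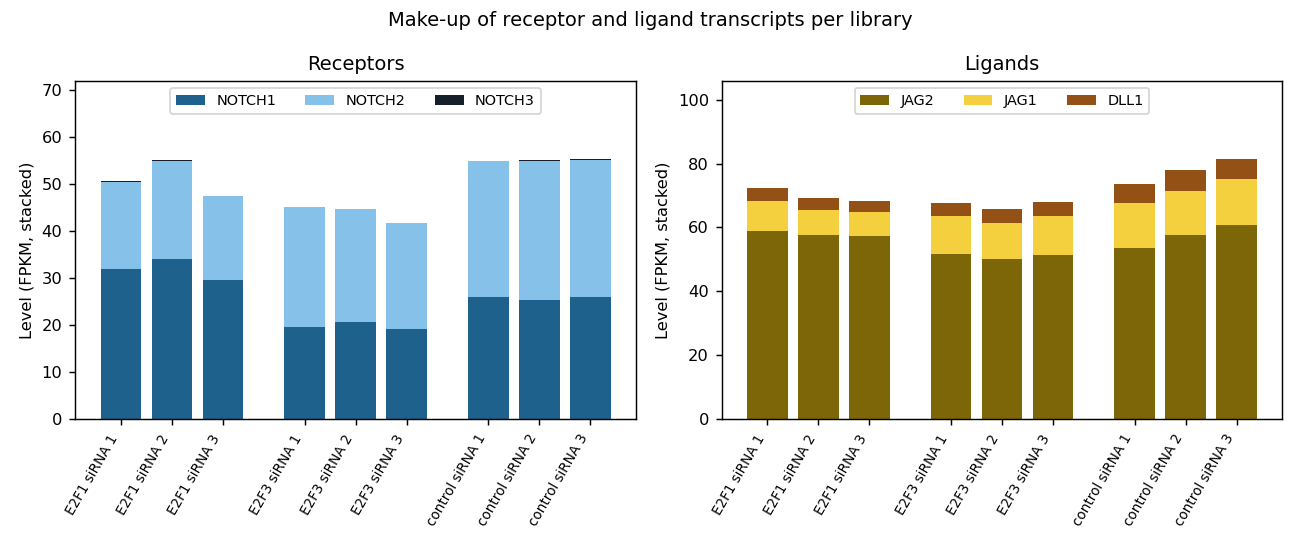
FPKM of the receptors (left) and the ligands (right) stacked in each of the 9 libraries, for E2F1 siRNA, E2F3 siRNA and control from left to right. NOTCH1 takes on average 62.4% of the receptor stack after E2F1 siRNA and 46.9% in control, and NOTCH3 is too low to be seen as more than a line.

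A further 53 genes of the pathway were taken from a list by role, of which 44 passed the filter. After E2F1 siRNA 7 of the 44 rose and 7 fell, beside 20.5% of all tested genes that rose and 17.3% that fell. After E2F3 siRNA 7 rose and 15 fell, beside 21.1% of all tested genes that rose and 16.4% that fell. Their median log2 change was 0.07 after E2F1 siRNA and -0.12 after E2F3 siRNA. The 9 genes of receptor cleavage held 3 that fell and 0 that rose after E2F1 siRNA, and 5 that fell and 0 that rose after E2F3 siRNA, to be read against those same shares.

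**Figure D5:**
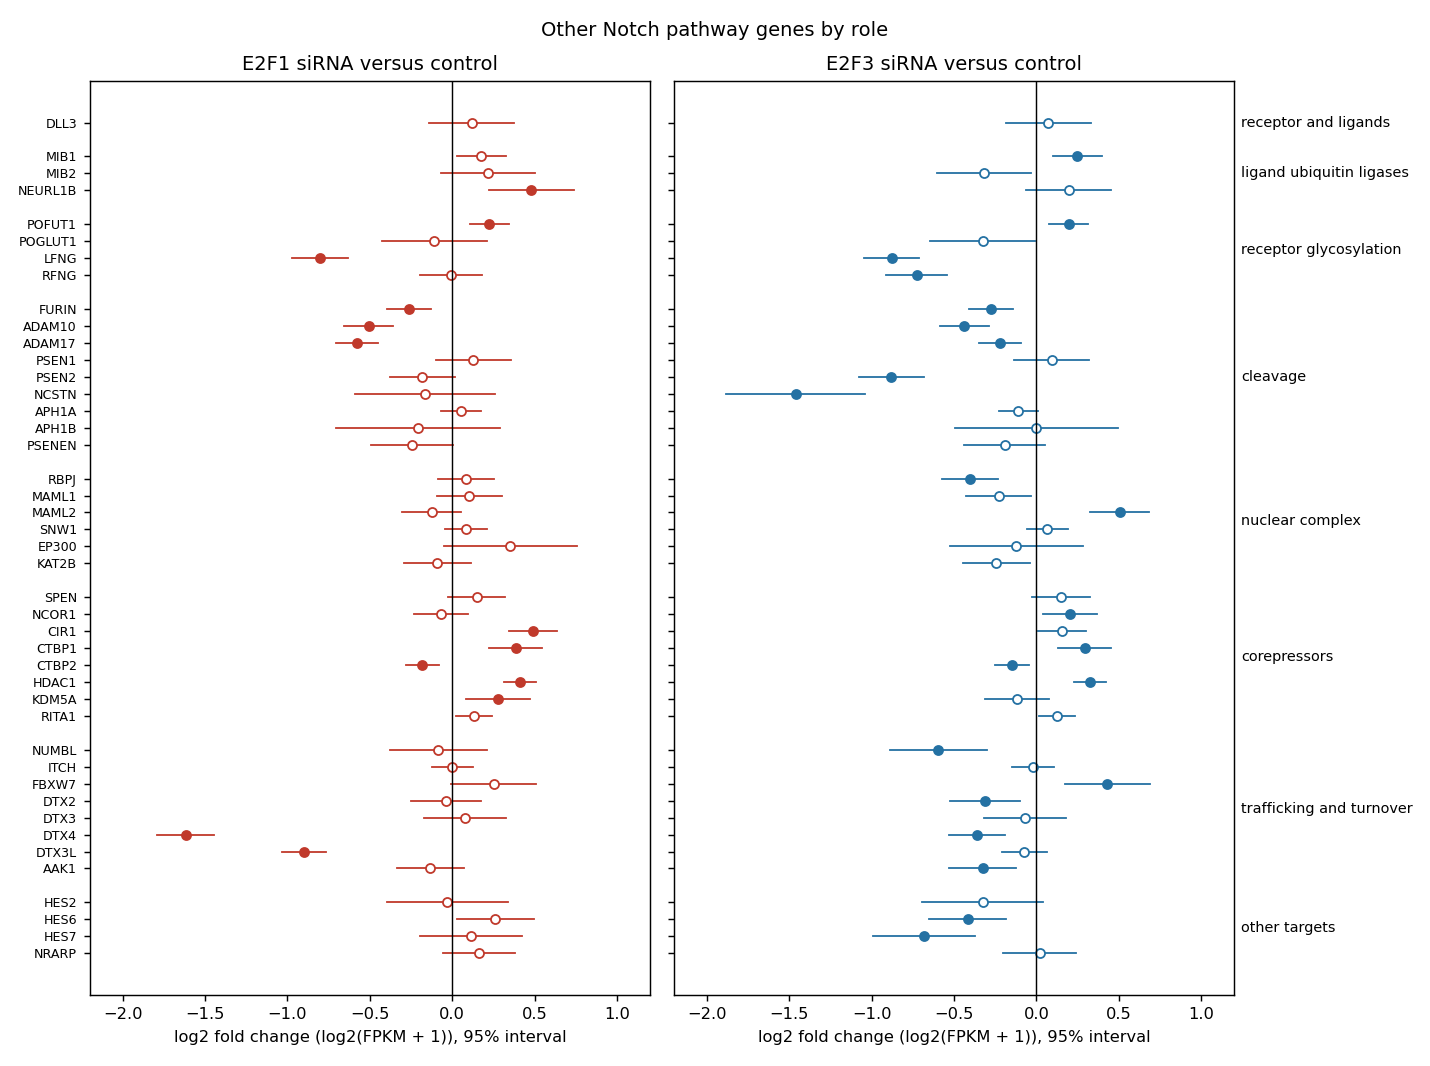
Log2 change on the log2(FPKM + 1) scale (horizontal axes) with its 95% interval for the other Notch pathway genes tested and reported, grouped by role, after E2F1 siRNA (left) and after E2F3 siRNA (right), each against control; filled points were called and open points were not. DTX4 and DTX3L are lowest after E2F1 siRNA and NCSTN is lowest after E2F3 siRNA.

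Within the cleavage group, the surface protease ADAM10 was at 57.3 ± 1.32 FPKM after E2F1 siRNA, 60.4 ± 6.19 after E2F3 siRNA and 81.9 ± 1.96 in control. It fell by 0.51 after E2F1 siRNA (limma adjusted p = 2.69e-04) and by 0.44 after E2F3 siRNA (limma adjusted p = 7.46e-04). The related protease ADAM17 fell by 0.58 after E2F1 siRNA (limma adjusted p = 4.27e-05) and by 0.22 after E2F3 siRNA, the smaller fall losing its call without control replicate 1 (log2 -0.19). FURIN, which cuts the receptor during its maturation, fell by 0.26 after E2F1 siRNA and by 0.28 after E2F3 siRNA. Subunits of gamma-secretase fell after E2F3 siRNA: NCSTN (nicastrin) was at 10.92, 19.26 and 17.26 FPKM after E2F3 siRNA and 40.08, 53.68 and 39.94 in control (log2 -1.46; limma adjusted p = 2.53e-04). It did not pass after E2F1 siRNA (34.59, 40.82 and 42.82 FPKM; log2 -0.17), and the siRNA groups differed directly (log2 -1.30; limma adjusted p = 4.00e-04). PSEN2, a catalytic subunit, fell by 0.88 after E2F3 siRNA (limma adjusted p = 4.82e-05) and did not pass after E2F1 siRNA (log2 -0.18).

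Of the 4 glycosylation genes tested, LFNG, the fringe enzyme whose sugars change which ligands a receptor answers, was at 7.43, 8.61 and 8.38 FPKM after E2F1 siRNA, 8.11, 7.68 and 7.18 after E2F3 siRNA, and 14.47, 14.56 and 15.72 in control. It fell by 0.80 after E2F1 siRNA (limma adjusted p = 2.94e-05) and by 0.88 after E2F3 siRNA (limma adjusted p = 1.94e-05), and all 6 siRNA libraries lay below control. The related fringe RFNG fell after E2F3 siRNA (log2 -0.73; limma adjusted p = 1.19e-04) and not after E2F1 siRNA (log2 -0.01), and the siRNA groups differed directly (log2 -0.72). POFUT1, which adds the fucose that fringes extend, rose by log2 0.23 after E2F1 siRNA and 0.19 after E2F3 siRNA. The second of these POFUT1 calls was lost without control replicate 2 (log2 0.16) or E2F3 siRNA replicate 2 (log2 0.16). Of 3 ligand ubiquitin ligases tested, which start the uptake of ligand in the sending cell, NEURL1B rose after E2F1 siRNA (log2 0.48; limma adjusted p = 0.00839). MIB1 rose after E2F3 siRNA (log2 0.25; limma adjusted p = 0.0154), a call lost without control replicate 1 (log2 0.23).

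In the nuclear complex, RBPJ, the DNA-binding factor of the pathway, was at 35.27, 31.75 and 31.89 FPKM after E2F1 siRNA, 23.48, 20.71 and 25.68 after E2F3 siRNA, and 31.02, 30.97 and 31.09 in control. The E2F3 siRNA libraries were the lowest of the 9 and the E2F1 siRNA libraries stood just above control. RBPJ fell by 0.40 after E2F3 siRNA (limma adjusted p = 0.00228) and was not called after E2F1 siRNA (log2 0.08; limma adjusted p = 0.417), and the direct difference passed (log2 -0.49; limma adjusted p = 5.62e-04). Its coactivator MAML2 was at 4.83 ± 0.104 FPKM after E2F3 siRNA and 3.11 ± 0.165 in control, a rise of log2 0.51 (limma adjusted p = 8.83e-04).

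Corepressors act with RBPJ or with HES proteins to silence targets. After E2F1 siRNA CIR1, HDAC1, CTBP1 and KDM5A rose and CTBP2 fell, and after E2F3 siRNA HDAC1, CTBP1 and NCOR1 rose and CTBP2 fell. The histone deacetylase HDAC1 was at 139 ± 2.37 FPKM after E2F1 siRNA, 131 ± 6.64 after E2F3 siRNA and 104 ± 2.64 in control. It rose by log2 0.41 after E2F1 siRNA (limma adjusted p = 6.23e-05) and 0.33 after E2F3 siRNA (limma adjusted p = 3.11e-04). The corepressor CTBP1 rose by log2 0.38 after E2F1 siRNA (limma adjusted p = 0.00216) and 0.29 after E2F3 siRNA (limma adjusted p = 0.0101), and CIR1, a linker of RBPJ to deacetylases, by log2 0.49 after E2F1 siRNA (limma adjusted p = 2.88e-04). The smaller calls were less firm: KDM5A after E2F1 siRNA (log2 0.28) was lost without control replicate 1 or 3 (log2 0.23 and 0.30) or E2F1 siRNA replicate 1 or 2 (log2 0.24 and 0.25), and CTBP2 after E2F3 siRNA (log2 -0.15) without control replicate 1 or 2 (log2 -0.14 and -0.13) or any E2F3 siRNA library (log2 -0.14 to -0.15). NCOR1 after E2F3 siRNA (log2 0.20) was lost without any 1 library other than control replicate 1 (log2 0.16 to 0.23).

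Among genes of receptor trafficking and turnover, the Deltex-family ubiquitin ligase DTX4 was at 4.82, 4.63 and 4.17 FPKM after E2F1 siRNA, 11.72, 13.09 and 11.88 after E2F3 siRNA, and 16.52, 14.84 and 16.64 in control. The groups did not overlap, and DTX4 fell by 1.62 after E2F1 siRNA (limma adjusted p = 4.31e-07) and by 0.36 after E2F3 siRNA (limma adjusted p = 0.00487). Its relative DTX3L was at 9.75 ± 0.376 FPKM after E2F1 siRNA and 19.0 ± 0.801 in control (log2 -0.90; limma adjusted p = 3.66e-06), and it was not called after E2F3 siRNA (log2 -0.07). NUMBL, the paralog of NUMB, fell after E2F3 siRNA (log2 -0.60; limma adjusted p = 0.00586) and was not called after E2F1 siRNA (log2 -0.08), whereas NUMB rose after both. FBXW7, the ubiquitin ligase that marks the Notch intracellular domain for breakdown, rose after E2F3 siRNA (log2 0.43; limma adjusted p = 0.0156), a call lost without control replicate 2 (log2 0.37) or E2F3 siRNA replicate 1 (log2 0.33). AAK1, a kinase of clathrin coats, fell by 0.33 and the Deltex gene DTX2 by 0.31 after E2F3 siRNA. Their calls were lost for AAK1 without control replicate 2 (log2 -0.30) or E2F3 siRNA replicate 3 (log2 -0.27), and for DTX2 without control replicate 1 or 3 (log2 -0.27 and -0.30) or E2F3 siRNA replicate 1 or 3 (log2 -0.27 for each).

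The list placed 4 other tested genes under the role of targets, and whether Notch drives each of them in these cells was not tested. HES7 was at 4.47, 5.93 and 7.12 FPKM after E2F3 siRNA and 11.4, 8.82 and 9.4 in control (log2 -0.68; limma adjusted p = 0.00381). HES6 fell by 0.42 after E2F3 siRNA (limma adjusted p = 0.0112). After E2F1 siRNA HES7 (log2 0.11) and HES6 (log2 0.26) did not pass. NRARP, a feedback inhibitor made in answer to Notch, was at log2 0.16 after E2F1 siRNA and 0.02 after E2F3 siRNA and was called in neither. HES5, HEYL and the Deltex gene DTX1 were listed at 0 in 7 or 8 of the 9 libraries and reached at most 0.05 FPKM.

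Some calls among the other pathway genes also depended on the settings. With GC and length correction the E2F3 siRNA calls of HES6 (log2 -0.31), MIB1 (log2 0.17), POFUT1 (log2 0.13), NCOR1 (log2 0.10) and DTX2 (log2 -0.23) were lost. With no filter those of FBXW7, NCOR1 and DTX2 after E2F3 siRNA and of KDM5A after E2F1 siRNA were lost.

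The genes whose levels across the 9 libraries most resembled those of a Notch gene were found by the root mean square difference of centred log2 values among 9425 genes. NOTCH1 was closest to HSPBP1 (0.0407), SUV39H1 (0.0426) and FARSA (0.0490), with a median of 0.308 over all candidates. HSPBP1, a cochaperone of HSP70, was at 23.11, 24.92 and 22.16 FPKM after E2F1 siRNA, 14.55, 15.3 and 14.5 after E2F3 siRNA, and 19.19, 17.51 and 18.27 in control. JAG2 was closest to PREPL (0.0410), TRIP10 (0.0433) and TMEM39B (0.0445), with a median of 0.193. HES4 was closest to CERCAM (0.109), TRMT61B (0.116) and CEBPB (0.119), with a median of 0.360.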

How the data were processed

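RNA of HK1 cells was measured by RNA sequencing in 9 libraries. Per the submitters' processing notes, the tools were DESeq, HTSeq, HISAT2, TopHat and Trimmomatic and the genome build was GRCh38, with versions, roles and strand setting not given in the sources used here. Each deposited file holds 1 library as FPKM per gene, made by the authors, per the file headers. Of 59107 entries per file, 58381 carry an Ensembl identifier, 58261 were named by GENCODE 29, and 12 lines of text without a value were left out. The files hold no counts, so depth is given only relative to control replicate 1, from 2636 single-exon genes of 900 to 1500 bases. Of their low values 75.0 to 82.9% lay within 0.25 of a whole step. Each library's step was chosen by its fit to these same values, and evenly spread values would also often lie that near. The share is therefore no independent check. At most 0.445% of values were identical between any pair of libraries.

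Values were taken as log2(FPKM + 1) for identifiers with at least 1 FPKM in at least 3 libraries (13777 genes). A limma fit over the 9 libraries together (version 3.58.1, R 4.3.3; trend, a mean per group) was used, with two-sided tests and Benjamini-Hochberg adjustment over all 13777 genes. On data simulated for E2F1 siRNA against control (13777 genes, 50 changed per fold size) recovery was 48% for 1.25-fold changes, 78% for 1.5-fold and 98% for 2-fold, and unchanged genes made up 6 of 167 calls. Changes were placed only in genes of at least 5 FPKM in control, so recovery of lower genes such as HEY1 is not known. Far fewer genes changed than the 5210 called in the data, which makes the adjusted p threshold stricter in the simulation. Figures and ratios were made in Python 3.11.15. Promoters are from RefSeq (GRCh38.p14).

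The 10 genes, the pathway list and the motifs were chosen with earlier results of these data known. Other pathway genes were named by a rule: up to 2 per role and direction among called genes, RBPJ, and those at 0. FURIN, KDM5A, NCOR1, AAK1, DTX2, NOTCH4 and NRARP were added after their values were seen. A pathway gene that was tested and counted is not reported here by name or value. Likeness was computed for the most abundant receptor by mean over the 9 libraries, and likewise for the ligand and the target, among protein-coding genes of at least 5 FPKM. Alternatives were RLE or upper-quartile scaling, no filter or a filter of 5 FPKM, a pseudocount of 0.1, only the 6 libraries compared, a replicate block, correction for GC content and length (loess, span 0.3), and leaving out each library.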

Additional observations from a re-analysis of the deposited data

How the results depend on the processing

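Against control, the calls of NOTCH1, NOTCH2 and DLL1 after both siRNAs, of JAG1 and HES1 after E2F1 siRNA and of HES4 after E2F3 siRNA held under every alternative run. In what follows the cause of each change was not tested. After E2F1 siRNA the genes that rose numbered 1 in place of 2 with no filter. After E2F3 siRNA they numbered 1 in place of 2 with RLE scaling, with a filter of 5 FPKM (HEY1 was then not tested) and with correction for GC content and length, with or without the block, and 0 with no filter. Between the siRNA groups 1 in place of 2 was lower after E2F3 siRNA with upper-quartile scaling and with GC and length correction, with or without the block, and 3 were lower with no filter, NOTCH3 included (limma adjusted p = 0.0218).

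Signs were reversed in comparisons that had not passed. JAG2 after E2F1 siRNA was at log2 -0.0077 with RLE scaling, -0.013 with upper-quartile scaling and -0.035 with GC and length correction, with or without the block, and at -0.028 to 0.060 when single libraries were left out. For E2F3 siRNA against E2F1 siRNA, NUMB was at log2 0.032 with upper-quartile scaling and at -0.057 to 0.064 when single libraries were left out, and HES4 at 0.0095 with GC and length correction, with or without the block.

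Leaving out each library gave 1 to 2 of the 9 genes that rose and 4 to 5 that fell after E2F1 siRNA, 1 to 2 and 4 to 6 after E2F3 siRNA, and 3 to 4 and 2 to 3 between the siRNA groups. Genes called numbered 4337 to 5276 of 13777 after E2F1 siRNA, 4243 to 5141 after E2F3 siRNA and 5472 to 6160 between them.

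Correlations of deviations between same-numbered libraries ran between -0.106 and 0.112, and between different-numbered libraries from -0.0768 to 0.0692. Same-numbered pairs were all negative between an siRNA group and control, and all positive between the siRNA groups. All were weak, so little sign of pairing by replicate number was seen. With the replicate block 4936 genes were called after E2F1 siRNA, 4871 after E2F3 siRNA and 5982 between them. Of the 9 genes it changed 1 call, HEY1 between the siRNA groups (limma adjusted p = 0.0599), and after E2F3 siRNA it ended those of the pathway genes NCOR1 (limma adjusted p = 0.0695) and DTX2 (limma adjusted p = 0.0517).

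The files hold no counts, so counting error for low genes such as HEY1 and NOTCH3 was not measured. The steps used for relative depth ran from 0.038 FPKM (control replicate 3) to 0.054 (control replicate 2) at 1 kb of transcript. Read as a single fragment each, they bound that error only roughly.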
